A study of Mus musculus with 36 samples.

Results

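Alveolar macrophages that had developed from yolk sac macrophages were compared with alveolar macrophages that had developed from fetal liver monocytes. The arrays of the comparison were chosen by the sample titles and numbered 8 of the 36 in the series, 4 for each origin. The labels give C57BL/6 as the strain of all samples. Donor cells came from wild-type mice with the congenic markers CD45.1+CD45.2+: macrophages of the E12.5 yolk sac and monocytes of the E15.5 fetal liver, where E counts embryonic days. They were given through the nose to neonate Csf2rb-/- recipients. After 6 weeks CD45.1+CD45.2+ cells were sorted from the fluid washed out of the airways, and these are called YS-derived and FL-derived macrophages here. Further groups used below, each of 4 arrays, were native alveolar macrophages from wild-type mice 6 weeks old, BM-derived macrophages (from monocytes of adult bone marrow, passed through the same transfer), AM-derived macrophages (from transferred adult alveolar macrophages), and the yolk sac macrophages and fetal liver monocytes before transfer. All transfer-derived groups had in common a recipient without Csf2rb, which the native group did not. The sources used here do not give sort markers beyond CD45, the sex of the mice or whether samples pooled several animals.

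Alveolar macrophages live in the air spaces of the lung, where they take up inhaled particles and clear surfactant, the lipid and protein film of the alveoli. Their development depends on the cytokine GM-CSF, whose receptor has Csf2rb as its signalling chain, and on the transcription factor PPAR gamma that GM-CSF induces. Yolk sac macrophages arise in the first wave of embryonic blood formation, and fetal liver monocytes are the usual precursors of alveolar macrophages around birth. A Csf2rb-/- lung lacks normal alveolar macrophages of its own, so that donor cells can fill the niche. The comparison addresses how much of the origin of a macrophage can still be read from its transcripts once both lineages have lived in the same tissue.

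The values were log2 signals per gene, and a difference of 1 on this scale is a doubling. A gene was tested where its signal exceeded the median of the table, 4.62, in at least 4 of the 36 arrays, which left 12244 genes. Differences are YS-derived minus FL-derived from a limma fit to all 36 arrays, ± standard error (SE), and a gene was called at a Benjamini-Hochberg adjusted p under 0.05. Where a group mean lay under the table median, the fold was taken against that median and is written "at least". The array medians of the 8 arrays lay between 4.58 and 4.67. Across genes, arrays correlated at 0.976 to 0.982 within YS-derived, 0.973 to 0.983 within FL-derived, and 0.970 to 0.981 between the groups. FL-derived array 4 had the lowest mean correlation with its own group, 0.973. For each gene the fit pooled the spread within all 9 groups of the series. The limma p-values therefore do not measure the spread of the 8 compared arrays alone. The labels call the samples biological replicates. In such bulk samples fewer cells of a type and less RNA per cell cannot be told apart.

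Both groups expressed alveolar macrophage markers. All 29 measured markers had group means above the table median in YS-derived and in FL-derived cells. That bar is low for some of them. Pparg (6.60 and 7.85) and Siglecf (5.84 and 5.82) also exceeded it in yolk sac macrophages and fetal liver monocytes. Chil3, a secreted chitinase-like protein that is abundant in these cells, read 12.81, 12.98, 12.82 and 12.995 in the YS-derived arrays and 13.05, 12.95, 12.99 and 13.04 in the FL-derived arrays. Car4, a membrane carbonic anhydrase, read between 11.46 and 11.69 in YS-derived and between 11.45 and 11.73 in FL-derived cells. The ranges of both genes overlapped between the origins. In yolk sac macrophages and fetal liver monocytes the means were 3.40 and 4.75 for Chil3 and 3.79 and 4.10 for Car4. Csf2rb itself, which the recipients lack, read 9.26 to 10.06 in YS-derived and 9.63 to 9.87 in FL-derived cells, against a mean of 9.85 in native cells. The sources used here do not say whether its probes lie in the deleted part of the gene.

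The origins differed in 33 of 12244 genes, which is 0.27% of those tested. Of these 20 were higher (0.163%) and 13 were lower (0.106%) in YS-derived macrophages, and 20 of the 33 (0.163% of all genes) differed by at least 2-fold, 14 higher and 6 lower. The largest differences were in Ddah1, which breaks down methylated arginines that inhibit nitric oxide synthases and was 11.8-fold higher in YS-derived cells, and in Cldn1, a tight junction protein that was at least 6.71-fold lower. The Ddah1 difference depended on the libraries: it was 2.55 on the log2 scale without FL-derived array 4, where Cldn1 (-3.31) and Mbnl3 (-3.02) differed more, and it was not called with the 8 arrays alone (adjusted p = 0.353). An unadjusted p under 0.05 was reached by 769 genes. For 11829 genes (96.6%) the 95% confidence interval of the difference lay within 2-fold in either direction, and the median SE was 0.17.

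How many genes were called depended on how the spread was estimated. The fit used one spread per gene over all 9 groups. With the 8 arrays alone, 9 genes were called, of which 8 belong to the 33: Cldn1, Mbnl3, Nectin3, Rras2, Xlr, Stk39, Cmbl and 3830403N18Rik. For 30 of the 33 the arrays of the groups did not overlap, against 3.61% of all genes tested. The 33 were called on these same arrays, so this count is a description and adds no support. The exceptions were Il1f9, Dnaja1 and C2. With each of the 8 arrays left out in turn, 16 of the 33 kept their call every time and 17 lost it at least once.

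**Figure D1:**
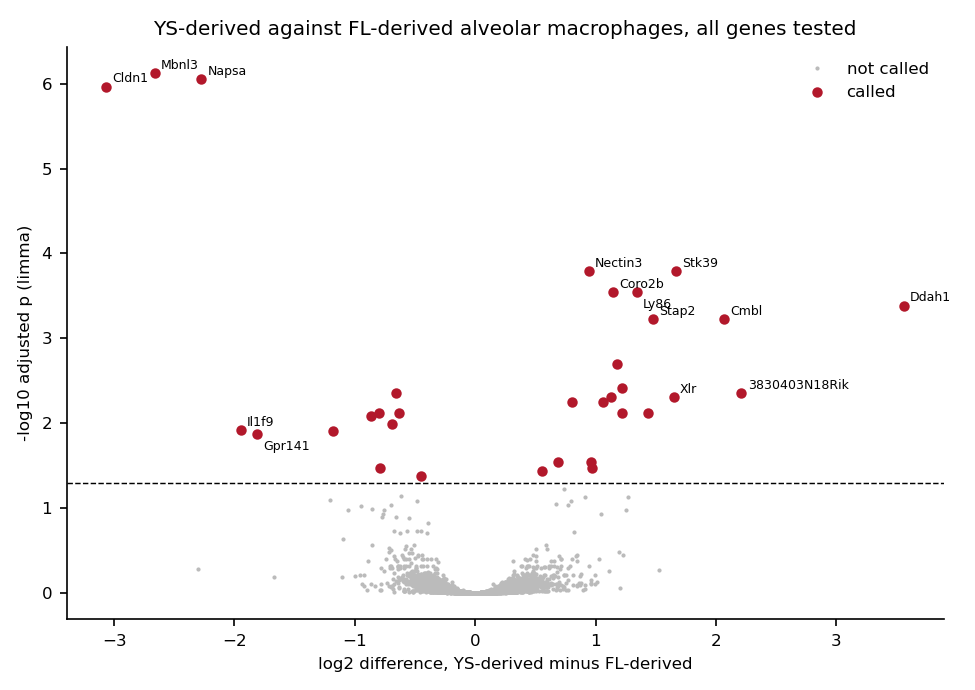
Log2 difference of YS-derived minus FL-derived macrophages (horizontal axis) against the negative log10 of the limma adjusted p (vertical axis) for the 12244 genes tested; red points are the 33 called genes and the dashed line marks an adjusted p of 0.05. Cldn1, Mbnl3 and Napsa stand above all other genes on the left, and Ddah1 lies farthest to the right.

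The promoters of the 3 called genes with the largest differences are shown because these genes differed most between the origins. Each window runs from 250 bases before the RefSeq transcript start to 50 after it, on the strand of the gene, in assembly GRCm38.p6. Ddah1 lies at chr3:145758442-145758741 on the plus strand, Cldn1 at chr16:26371790-26372089 on the minus strand and Mbnl3 at chrX:51205941-51206240 on the minus strand.
Ddah1: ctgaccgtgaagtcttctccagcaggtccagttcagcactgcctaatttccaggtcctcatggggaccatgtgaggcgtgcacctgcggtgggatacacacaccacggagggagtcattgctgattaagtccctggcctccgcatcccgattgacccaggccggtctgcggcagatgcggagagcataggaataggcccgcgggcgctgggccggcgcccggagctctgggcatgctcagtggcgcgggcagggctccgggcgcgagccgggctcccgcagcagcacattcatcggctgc
Cldn1: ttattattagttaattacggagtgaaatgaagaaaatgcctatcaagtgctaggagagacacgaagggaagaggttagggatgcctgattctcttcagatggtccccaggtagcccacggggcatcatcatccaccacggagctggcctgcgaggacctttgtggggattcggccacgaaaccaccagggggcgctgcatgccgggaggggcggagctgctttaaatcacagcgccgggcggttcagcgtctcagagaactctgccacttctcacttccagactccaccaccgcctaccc
Mbnl3: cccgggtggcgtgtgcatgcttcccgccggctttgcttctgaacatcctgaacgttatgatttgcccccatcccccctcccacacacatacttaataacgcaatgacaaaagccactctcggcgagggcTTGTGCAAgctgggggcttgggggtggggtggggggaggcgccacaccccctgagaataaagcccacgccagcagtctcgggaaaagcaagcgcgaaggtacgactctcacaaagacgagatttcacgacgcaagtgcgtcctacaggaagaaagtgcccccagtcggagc
Capitals mark the only match, to the C/EBP motif on the reverse strand of Mbnl3, with its first base at position -121 from the start; all motifs were searched on both strands. Of 33 called genes 29 had at least 1 window of this length, 36 windows in all, and 32851 windows stood for all genes. The C/EBP motif TTGCNNAA was held by 10.8% of all windows and by 2 of the 29 genes, Mbnl3 and Rras2. The PU.1 core GAGGAA was held by 28.3% of all windows and by 8 of the 29 genes. The AP-1 motif TGANTCA was held by 7.81% of all windows and by 1 gene, Ghr, and the E-box CACGTG by 7.15% and by 1 gene, Rec114. The direct repeat bound by PPAR and RXR, with 1 base between its repeated parts, stood in 0.04% of all windows and in none of the 29 genes, and the longer PU.1 site GAGGAAGT, which contains the core, in 3.20% and in none. A match is a description of letters in this window and no evidence of binding.

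Among the 13 genes lower in YS-derived macrophages, Cldn1, Mbnl3 and Napsa had the smallest adjusted p of all genes. Cldn1 read 5.29, 3.70, 3.96 and 4.27 in the YS-derived arrays, against 6.998, 8.10, 7.75 and 6.62 in the FL-derived arrays. Every YS-derived array lay below every FL-derived array, and 3 of the 4 lay under the table median (difference -3.06 ± 0.34, adjusted p = 1.08e-06, limma). Mbnl3, an X-linked RNA-binding protein of the muscleblind family of splicing regulators, read 4.41, 4.22, 4.96 and 4.92 in YS-derived cells, against 7.98, 7.37, 7.58 and 6.22 in FL-derived cells. It was 6.32-fold lower in YS-derived cells (-2.66 ± 0.28, adjusted p = 7.48e-07). The BM-derived and AM-derived groups, at means of 7.59 and 7.64 for Mbnl3 and 7.41 and 7.19 for Cldn1, lay near the native means of 7.45 and 7.64.

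Napsa encodes the aspartic protease napsin A, known from type II cells of the lung, where it takes part in the processing of surfactant protein B. It read 5.04, 4.76, 5.75 and 5.55 in YS-derived macrophages, against 8.04, 7.81, 6.46 and 7.89 in FL-derived macrophages. FL-derived array 3 was the lowest of its group and still above all YS-derived arrays (-2.27 ± 0.25, adjusted p = 8.75e-07). Since Napsa and Cldn1 are also expressed by epithelium, lung epithelial markers are given beside them. The summed linear signal of all 20 was 511.6 to 587.9 in YS-derived and 617.4 to 770.6 in FL-derived cells, without overlap. Without Napsa the other 19 gave 464.8 to 555.0 in YS-derived and 468.7 to 546.2 in FL-derived cells, and the ranges overlapped. Of the 20 markers, 10 had a mean above the table median in YS-derived and 11 in FL-derived cells. Sftpc, the surfactant protein C gene of type II cells, was not called (-1.10 ± 0.31, adjusted p = 0.228), with 3.81 to 4.44 in YS-derived and 4.79 to 5.80 in FL-derived cells, ranges that did not overlap. Scgb1a1, the secretoglobin of airway club cells, lay the other way, with 6.94, 5.65, 5.44 and 4.78 in YS-derived and 4.63 to 4.90 in FL-derived cells (0.96 ± 0.44, adjusted p = 0.767). Scgb3a2, a related gene below the filter, read 3.88 to 5.00 in YS-derived and 3.37 to 4.17 in FL-derived cells, which overlapped. Of the 13 markers tested 1 was called, Napsa, and an unadjusted p under 0.05 was reached by 1 higher and 2 lower. The surfactant gene Sftpb had means of 5.01 in YS-derived and 5.07 in FL-derived cells. The part of epithelial RNA in these values was not tested.

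A further group of the lower genes encodes receptors and signalling proteins. Gpr141, an orphan G protein-coupled receptor, read 4.46, 3.50, 3.15 and 3.76 in YS-derived cells, against 5.24, 6.11, 4.71 and 6.05 in FL-derived cells. No YS-derived array reached the lowest FL-derived one, and the fold was at least 1.87 (-1.81 ± 0.37, adjusted p = 0.0132). Plcb1, a phospholipase C that acts downstream of such receptors, differed by -1.18 ± 0.24 (adjusted p = 0.0123). Fcgr2b, the inhibitory receptor for IgG, was lower in all YS-derived arrays, at 6.57 to 7.23 against 7.51 to 8.01 in FL-derived cells (-0.80 ± 0.16, adjusted p = 0.00761). Its call was lost without YS-derived array 2 (adjusted p = 0.0716) or FL-derived array 4 (0.0505). Cd48, a SLAM family surface protein that binds CD244, read 8.97 to 9.36 in YS-derived and 9.76 to 9.89 in FL-derived cells (-0.66 ± 0.12, adjusted p = 0.0044). Ifngr1, the ligand-binding chain of the interferon gamma receptor, had the smallest called difference, -0.45 ± 0.10 (adjusted p = 0.0414), and its call was lost when any 1 of 4 arrays was left out.

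Il1f9, which encodes the cytokine IL-36 gamma, was with Dnaja1 one of the 2 lower genes whose FL-derived mean lay farther from the native mean. It read 3.35, 5.50, 3.88 and 3.57 in YS-derived cells and 6.75, 6.17, 5.85 and 5.32 in FL-derived cells. YS-derived array 2 lay above the lowest FL-derived array, so the groups overlapped (-1.95 ± 0.40, adjusted p = 0.0119). Native cells had a mean of 3.51, and BM-derived and AM-derived cells had means of 5.85 and 5.21. The FL-derived level exceeded the native one by 2.51 (adjusted p = 0.000176), while the YS-derived difference of 0.56 was not called. The call between the origins was lost when any 1 of 4 arrays was left out.

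The remaining lower genes differed by less than 2-fold. Dnaja1, a co-chaperone of the heat shock protein Hsp70, differed by -0.79 ± 0.17 (adjusted p = 0.0335). Its YS-derived array 4, at 10.13, lay above FL-derived array 4, at 10.01, so the groups overlapped, and a further probe set of the gene gave -0.41. Agap2, a GTPase-activating protein for Arf proteins, differed by -0.69 ± 0.14, and Nudt4, which hydrolyses diphosphoinositol polyphosphates, by -0.64 ± 0.12. The transcript 4930523C07Rik differed by -0.86 ± 0.17 and lay under the table median in all YS-derived arrays.

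Among the 20 genes higher in YS-derived macrophages, Ddah1 had the largest difference and the widest spread. It read 10.46, 10.35, 11.09 and 11.10 in YS-derived cells, against 8.63, 8.88, 7.07 and 4.16 in FL-derived cells. The YS-derived arrays lay close together, and FL-derived array 4 alone was as low as the native arrays, which averaged 4.79 (3.56 ± 0.55, adjusted p = 0.00041). Without FL-derived array 4 the difference was 2.55 (adjusted p = 0.000214), and in the fit of the 8 arrays alone Ddah1 was not called. AM-derived and BM-derived cells lay between the YS-derived and native means, at 8.58 and 6.71.

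Enzymes of metabolism and lipid handling were among the higher genes. Cmbl, a hydrolase of the carboxymethylenebutenolidase family, read 8.35, 8.43, 8.49 and 8.11 in YS-derived and 6.22, 6.69, 6.08 and 6.11 in FL-derived cells. The gap between the groups was wider than the range of either, and Cmbl was called under all alternatives run (4.20-fold, 2.07 ± 0.33, adjusted p = 0.000599). Fabp4, a fatty acid-binding protein and known target of PPAR gamma, read 10.74, 10.83, 10.59 and 10.56 in YS-derived cells, against 9.05, 9.47, 9.52 and 10.16 in FL-derived cells. It was 2.18-fold higher in YS-derived cells (1.13 ± 0.21, adjusted p = 0.00495), and its call was lost without FL-derived array 1 (adjusted p = 0.0503). Native cells averaged 9.99, between the origins, and neither origin was called against them. Pex16, which is needed to build peroxisome membranes, differed by 0.56 ± 0.13 (adjusted p = 0.0365), and its call was lost whichever of the 8 arrays was left out.

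Kinase, GTPase and adaptor genes formed a further set. Stk39, a kinase that regulates chloride cotransporters, read 5.92, 5.08, 5.09 and 5.54 in YS-derived and 3.68, 3.70, 4.00 and 3.56 in FL-derived cells. All FL-derived arrays were under the table median, so the fold was at least 1.72 (1.67 ± 0.24, adjusted p = 0.000162). Rras2, a small GTPase of the Ras family, read 7.996 to 8.75 in YS-derived and 6.66 to 7.40 in FL-derived cells (1.43 ± 0.28, adjusted p = 0.00761), with a loss of the call without YS-derived array 1 (0.0525) or FL-derived array 1 (0.0567). Stap2, a signal-transducing adaptor, was higher by 1.48 ± 0.24, Apbb2, an adaptor that binds the amyloid precursor protein, by 1.22 ± 0.22, and Sipa1l1, a GTPase-activating protein for Rap, by 0.80 ± 0.15. Coro2b, an actin-binding coronin, was higher by 1.14 ± 0.17 and Nectin3, a cell adhesion protein, by 0.94 ± 0.14 (adjusted p = 0.000162).

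Receptors and secreted immune proteins made up the next set. Ghr, the growth hormone receptor, read 6.06, 5.79, 5.55 and 6.10 in YS-derived and 4.85, 4.74, 3.94 and 5.27 in FL-derived cells (1.18 ± 0.20, adjusted p = 0.00199). Native cells averaged 3.14, so both origins lay above them, by 2.74 and 1.56. Ly86, which encodes MD-1, the partner of the Toll-like receptor homologue RP105, read 7.22 to 7.96 in YS-derived and 5.50 to 6.69 in FL-derived cells (1.34 ± 0.20, adjusted p = 0.000282). C2, a complement protease, overlapped between the groups at 5.21 to 6.53 and 4.35 to 5.61 (1.22 ± 0.24, adjusted p = 0.00761), and its call was lost without YS-derived array 1 (0.0631) or FL-derived array 1 (0.0709). Ccl5, a chemokine that attracts T cells and monocytes, read 5.99 to 7.19 in YS-derived and 5.26 to 5.59 in FL-derived cells (0.97 ± 0.22, adjusted p = 0.0339), and its call was lost without any 1 of 6 arrays.

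The X-linked genes Xlr and 3830403N18Rik belong to related families, so their probe sets may share signal. Xlr read 8.58, 8.59, 9.04 and 8.44 in YS-derived cells, against 7.34, 6.97, 6.84 and 6.91 in FL-derived cells. The groups were far apart relative to their ranges, and Xlr too was called under all alternatives run (3.14-fold, 1.65 ± 0.31, adjusted p = 0.00495). The locus 3830403N18Rik was at least 3.36-fold higher in YS-derived cells (2.21 ± 0.40, adjusted p = 0.0044). Of the 33 called genes 3 lay on the X chromosome, against 347 of all genes tested (2.83%). Of 10 sex-linked genes tested 0 were called by limma (1 at an unadjusted p under 0.05, Kdm6a). Xist, the X inactivation transcript, read 6.37 to 8.53 in YS-derived and 6.68 to 8.51 in FL-derived cells. Kdm6a, an X-linked histone demethylase gene, read 5.91 to 6.35 in YS-derived and 6.44 to 6.97 in FL-derived cells without overlap (-0.69 ± 0.24, adjusted p = 0.507). Its Y-linked counterpart Uty read 5.33, 5.55, 4.68 and 5.44 in YS-derived cells, against 4.08, 4.08, 5.61 and 5.75 in FL-derived cells, so it varied within the FL-derived group. The part of the sex of the cells in the differences was not tested. The last higher genes were Fam135a (1.06), Rec114 (0.96), known from meiotic recombination, and Fsd2 (0.69).

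**Figure D2:**
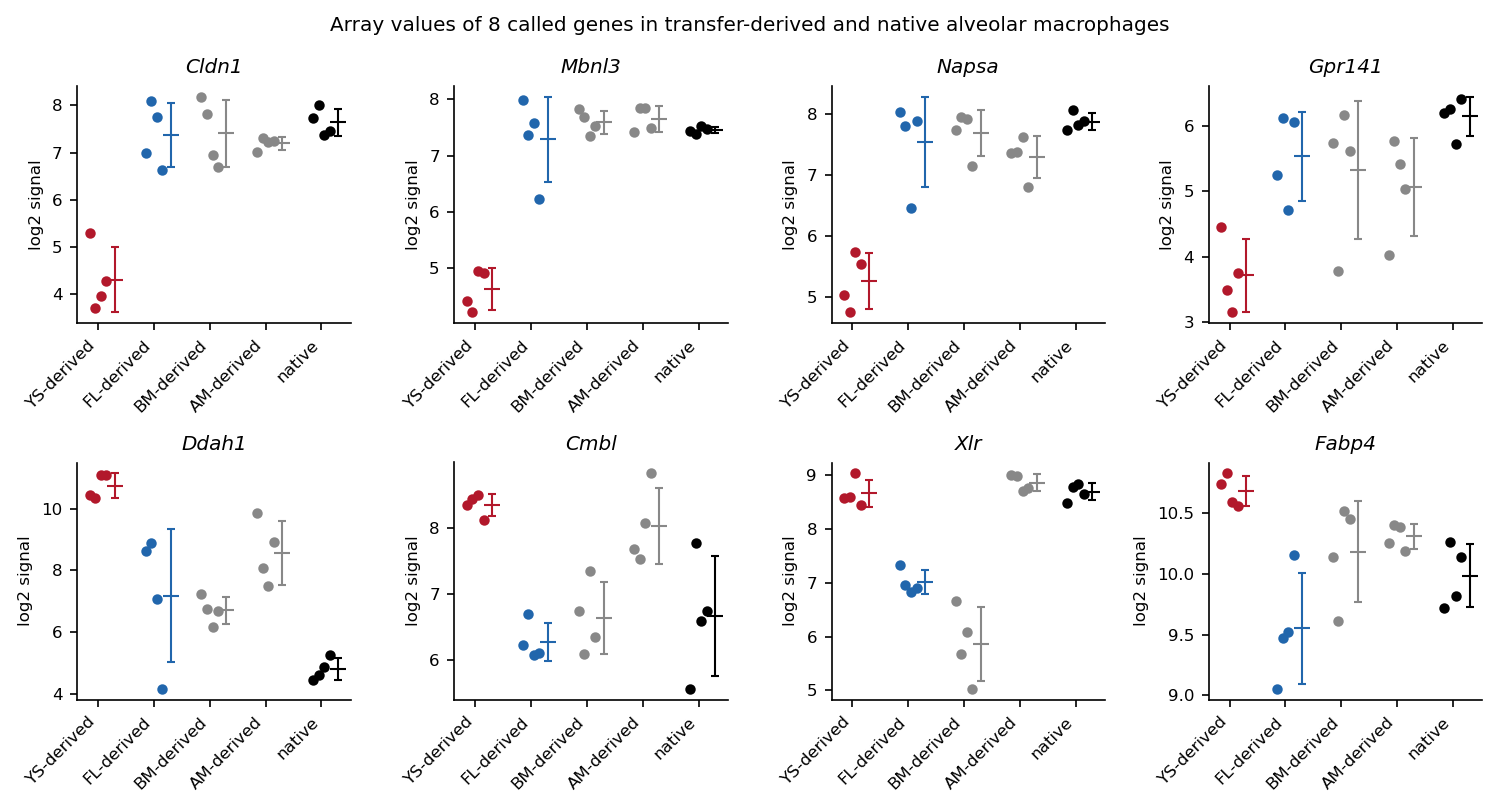
Log2 signal of 8 called genes in each array (points) with the mean ± SD of the 4 arrays (bars) in YS-derived, FL-derived, BM-derived, AM-derived and native alveolar macrophages. For Cldn1, Mbnl3 and Napsa the YS-derived arrays lie below all other groups, while for Xlr the FL-derived and BM-derived arrays lie below the other 3 groups.

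Native alveolar macrophages serve here as a reference for both origins. They were not transferred and did not live in a host without Csf2rb, so a difference from them cannot be assigned to origin alone. Both comparisons with native cells share the native arrays, so their values are given side by side. YS-derived cells differed from native cells in 211 of all genes (1.72%) and FL-derived cells in 128 (1.05%). Of the 33 genes, 19 were called between YS-derived and native cells and 9 between FL-derived and native cells. These figures include 4 genes called for both, and 9 were called for neither. The YS-derived mean was farther from the native mean than the FL-derived one for 26 of the 33, 11 of the 13 lower and 15 of the 20 higher genes. Over all genes tested that share was 53.1%. The 33 were called on these same YS-derived and FL-derived arrays, so their counts against native cells are descriptions and add no support. Set against BM-derived cells, YS-derived cells differed in 102 genes (0.833%) and FL-derived cells in 51 (0.417%), with the BM-derived arrays in common.

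Cldn1, Mbnl3 and Napsa belonged to the genes in which only the YS-derived comparison was called. They differed from native cells by -3.34, -2.82 and -2.60 in YS-derived macrophages, and by -0.27, -0.16 and -0.33 in FL-derived macrophages. Fcgr2b differed by -1.28 in YS-derived and -0.47 in FL-derived cells, and Cd48 by -0.72 and -0.06. The reverse was seen for Ly86, Rras2 and Xlr, in which only FL-derived cells were called against native cells. Their YS-derived differences were -0.49, -0.61 and -0.03, against -1.83, -2.04 and -1.68 in FL-derived cells. Ddah1, Ghr and C2 were above the native level in both origins, by 5.95, 2.74 and 2.15 in YS-derived cells and by 2.39, 1.56 and 0.93 in FL-derived cells. Among the alveolar macrophage groups, Xlr had its lowest mean in BM-derived cells, 5.86, against 8.86 in AM-derived cells.

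Over the whole profile the distance to the native mean was the root mean square log2 difference across the genes tested. It was 0.386, 0.365, 0.362 and 0.356 for the YS-derived arrays and 0.337, 0.339, 0.326 and 0.383 for the FL-derived arrays. FL-derived array 4 lay within the YS-derived range and the other 3 lay below it. The means were 0.367 ± 0.013 and 0.346 ± 0.025 (SD, n = 4 each), with an exact two-sided permutation p of 0.2, where the smallest possible p is 0.0286. Without FL-derived array 4 the difference of 0.021 became 0.033. The other 3 lay below all YS-derived arrays, so the exact permutation p was then bound to be 0.0286, the smallest for 4 against 3 arrays. That p adds no support. The native arrays themselves lay 0.280 to 0.308 from the mean of their other 3.

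**Figure D3:**
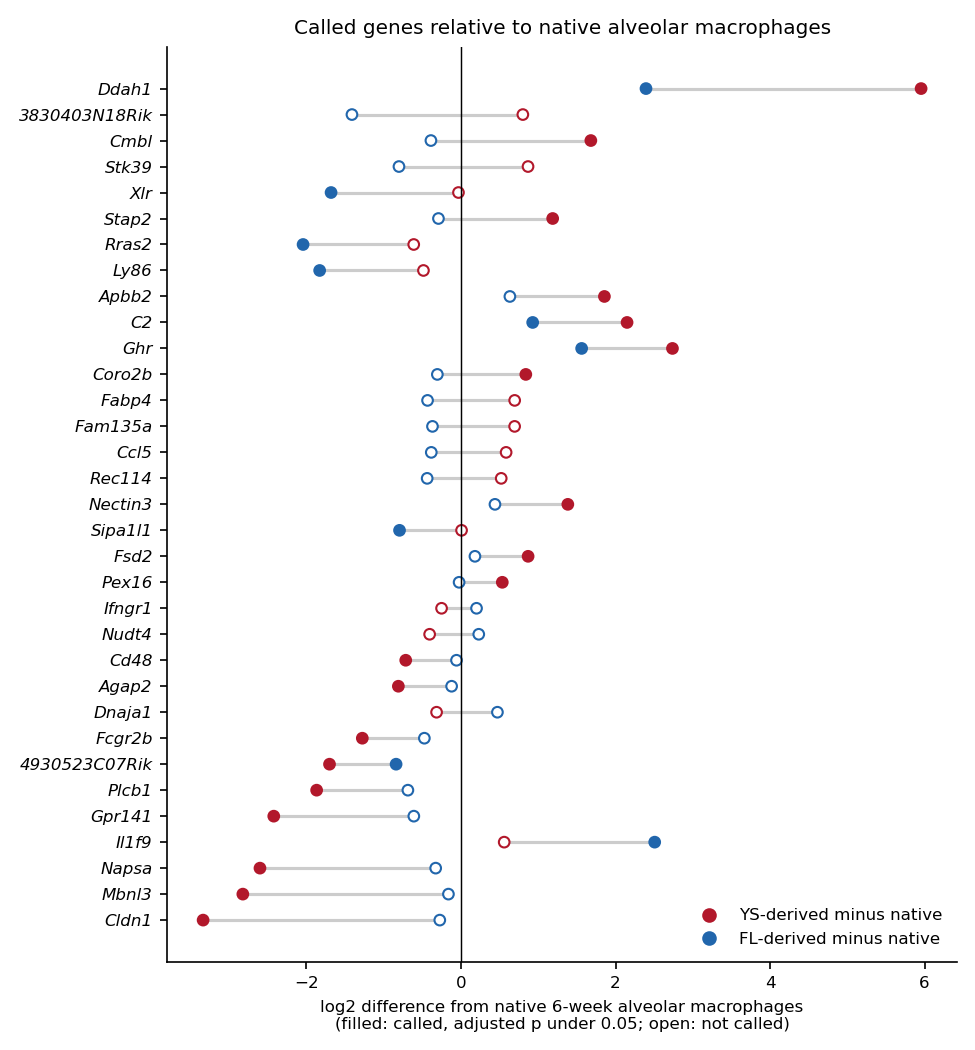
Log2 difference from native alveolar macrophages for the 33 called genes, in YS-derived (red) and FL-derived (blue) cells; filled points were called against native cells and open points were not. Cldn1, Mbnl3, Napsa and Gpr141 have a red filled point far to the left and a blue open point nearer 0, whereas Il1f9, Ly86, Rras2, Xlr and Sipa1l1 have the filled point in FL-derived cells alone.

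The precursors, whose arrays are separate from the 8, show what the difference was before transfer. Yolk sac macrophages and fetal liver monocytes differed in 4057 genes (33.1%), of which 1492 differed by at least 2-fold. Of those 1492 genes, 19 still differed by at least 2-fold in the same direction between the derived groups, and 16 were called in that direction. For the 486 genes that had differed by at least 4-fold, the median difference in the direction of the precursors was 0.05 after transfer, against 2.92 before it. In 420 of them (86.4%) the 95% confidence interval after transfer lay within 2-fold. Across all genes tested the differences before and after transfer had a Pearson correlation of 0.07 and a Spearman correlation of -0.02, given as a description since genes are not independent.

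Genes that mark the precursors differed far less after transfer. Mrc1, the mannose receptor of tissue macrophages, had differed by 8.50 before transfer, with means of 11.76 in yolk sac macrophages and 3.26 in fetal liver monocytes. It then read 10.67 to 11.22 in YS-derived and 10.74 to 11.18 in FL-derived cells (-0.08 ± 0.21, adjusted p = 0.989). Ccr2, the chemokine receptor that brings monocytes out of the marrow, had differed by -6.66. It read 5.16 to 5.80 in YS-derived and 4.84 to 6.28 in FL-derived cells (-0.19 ± 0.22). Cx3cr1, the fractalkine receptor, had differed by 3.58 and differed by 0.04 ± 0.20 after transfer. The groups overlapped for all 3 genes, and the changes in their differences were called (-8.58, 6.47 and -3.54 by the interaction test below, adjusted p at most 8.36e-12).

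The called genes had often differed before transfer as well. Of the 33, 25 (75.8%) were called between the precursors, 23 in the same direction (10 lower, 13 higher) and 2 in the opposite one. The share of called genes is to be read against the 33.1% of all genes that differed between precursors, 18.6% higher and 14.5% lower in yolk sac macrophages. Both tests used the same pooled spread per gene, so their calls are not independent. Cldn1 averaged 3.77 in yolk sac macrophages and 6.20 in fetal liver monocytes (-2.42), and Mbnl3 averaged 5.71 and 7.86 (-2.15), against -3.06 and -2.66 after transfer, and the interaction test given further on called neither. Cmbl had differed by 2.73, Xlr by 1.99, Rras2 by 1.70 and Ddah1 by 2.04. Ddah1 averaged 6.57 in yolk sac macrophages and 4.53 in fetal liver monocytes before transfer. The precursor difference was not called for Fcgr2b, Nudt4, Sipa1l1, Rec114, Ccl5, Apbb2, Ly86 and Stap2.

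A test of the difference between the differences (derived minus precursor, an interaction) called 2808 genes (22.9%) and 11 of the 33. Gpr141 and Napsa had differed far more before transfer, by -6.40 and -6.08, and the interactions were 4.59 ± 0.53 and 3.80 ± 0.35 (adjusted p = 1.96e-08 and 1.19e-10). Napsa was at 10.71 in fetal liver monocytes and 4.63 in yolk sac macrophages. For Stk39 the precursor difference of 4.14 was likewise larger, with an interaction of -2.47. Dnaja1 and Pex16 were the 2 genes whose direction was opposite before transfer: Dnaja1 had been higher in yolk sac macrophages by 0.63 (interaction -1.42, adjusted p = 3.55e-05) and Pex16 had differed by -0.68 (interaction 1.24, adjusted p = 1.36e-06). Fcgr2b, at 6.85 in yolk sac macrophages and 6.76 in fetal liver monocytes, had an interaction of -0.89 (adjusted p = 0.00258). The interaction contains the difference between the derived groups by which the 33 were called. For these genes its p-values are therefore descriptions and add no support to that difference.

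**Figure D4:**
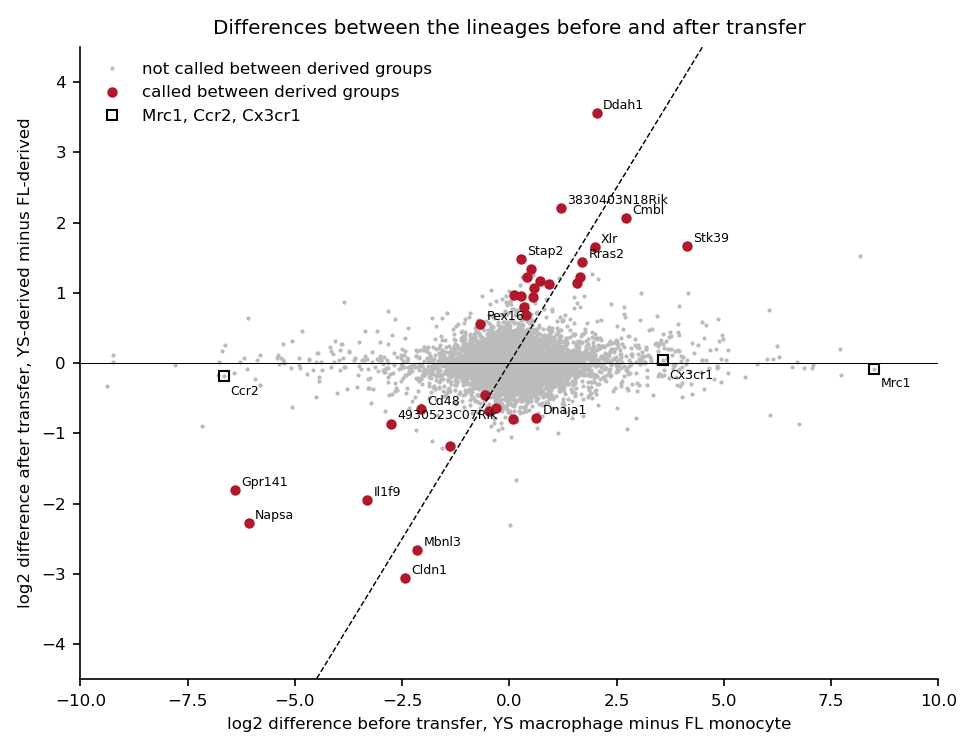
Log2 difference before transfer (yolk sac macrophage minus fetal liver monocyte, horizontal axis) against the difference after it (YS-derived minus FL-derived, vertical axis) for the genes tested; red points are the 33 called genes, squares mark Mrc1, Ccr2 and Cx3cr1, and the dashed line marks equal differences. Most genes lie along the horizontal line at 0 whatever their difference before transfer, and Ddah1, Cldn1 and Mbnl3 lie near or beyond the dashed line.

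Gene lists for alveolar macrophage functions held 0 or 1 called gene each. Over all genes tested 0.27% were called and the median difference was 0.00. In lists this short 1 call already exceeds that share, so the counts are descriptions. Of 29 alveolar macrophage markers 1 was called, Fabp4, and the median difference was 0.05. Pparg itself read 9.85 to 10.15 in YS-derived and 10.20 to 10.46 in FL-derived cells. The groups did not overlap, but the difference of -0.31 ± 0.14 was not called (adjusted p = 0.767). Siglecf, a sialic acid receptor that marks alveolar macrophages, had -0.57 ± 0.19 (adjusted p = 0.479), with 8.49 to 8.88 in YS-derived and 8.75 to 9.44 in FL-derived cells. Against native cells its YS-derived difference of -0.96 was called (adjusted p = 0.00183) and its FL-derived difference of -0.39 was not. The Siglecf means were 8.66 in YS-derived, 8.82 in BM-derived, 9.23 in FL-derived, 9.33 in AM-derived and 9.62 in native cells. Marco, a scavenger receptor, had 0.13, Itgax, the integrin CD11c, 0.05 and Bhlhe41, a repressor that alveolar macrophages need for self-renewal, 0.07.

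Of 21 genes of the GM-CSF receptor and its signalling 0 were called by limma, 4 had an unadjusted p under 0.05, all lower, and the median was -0.10. Csf2rb had -0.06 ± 0.19, Csf2ra, the ligand-binding chain, -0.25 ± 0.18, and Cish, a feedback inhibitor of cytokine signalling, -0.54 ± 0.25. The list for uptake, storage and efflux of lipids held 36 tested genes and 1 call, again Fabp4, and the median was -0.02. Of 19 cholesterol synthesis genes 0 were called and 1 had an unadjusted p under 0.05, with a median of -0.20 and members between -0.44 and 0.12. FL-derived array 4 stood out there, at 9.88 for Hmgcs1, the synthase at the start of the pathway, against 8.41 to 8.61 in the other FL-derived arrays and 8.20 to 8.63 in YS-derived cells.

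No gene on the lists of precursor markers was called between the origins. Outside these lists Gpr141, Napsa and Stk39, which had differed by -6.40, -6.08 and 4.14 before transfer, were called. Of 21 classical monocyte markers 0 were called by limma (1 at an unadjusted p under 0.05) and the median was 0.03. Of 26 tissue and fetal macrophage markers 0 were called (2 unadjusted) and the median was 0.02. Before transfer 17 of the monocyte list were lower and 25 of the macrophage list were higher in yolk sac cells. Pf4, a platelet factor also made by fetal macrophages, read 8.21, 6.999, 4.97 and 4.90 in YS-derived and 4.05, 5.74, 5.27 and 3.92 in FL-derived cells. YS-derived arrays 1 and 2 were high and the other two overlapped with FL-derived cells (1.53 ± 0.53, adjusted p = 0.531). Igf1, an insulin-like growth factor of tissue macrophages, was not called between origins (0.58 ± 0.26, adjusted p = 0.757) but exceeded the native level by 1.96 in YS-derived and 1.37 in FL-derived cells. Igf2bp3, which binds RNA and is expressed in fetal tissue, had 0.20 ± 0.17 between the origins and lay above native cells in both, by 1.59 and 1.39. The BM-derived and AM-derived means were 7.99 and 8.06 for Igf1, against 6.59 in native cells. For Igf2bp3 they were 5.33 and 5.23, against 5.22 in native cells.

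Immune function lists gave the same kind of count. Of 28 inflammatory mediators 1 was called, Ccl5. Ccl9, a macrophage chemokine, had 1.02 ± 0.32 (adjusted p = 0.397), and Ccl17, a ligand of CCR4, had -1.67 ± 0.65 (adjusted p = 0.652) with FL-derived array 2 at 10.97 and the other 7 arrays between 6.25 and 8.18. Of 26 interferon response genes 0 were called by limma (4 at an unadjusted p under 0.05, all higher), with the highest median of the lists, 0.22, and Ifit3, an interferon-induced antiviral protein, at 0.99 ± 0.48. The 12 tested members of the MHC class II list held 0 calls (3 unadjusted, where 2 were higher and 1 lower). H2-Aa, an MHC class II alpha chain, read 7.18 to 8.15 in YS-derived and 5.64 to 8.11 in FL-derived cells (1.01 ± 0.45, adjusted p = 0.746), both under the native mean of 8.98, from which only the FL-derived difference of -2.44 was called. Of 30 scavenger and phagocytic receptors 1 was called, Fcgr2b, and of 29 lysosomal genes 1, Napsa. The 35 cell cycle genes had 0 calls (3 unadjusted, all higher) and a median of 0.10, and the 25 early response genes had 0 calls (4 unadjusted, all lower) and a median of -0.10. The lists for glycolysis and hypoxia (20 genes, 2 unadjusted), fetal growth (9 genes, 0 unadjusted), adult haematopoietic and Hox genes (8 genes, 0 unadjusted) and stefins, S100 and secreted defence proteins (16 genes, 0 unadjusted) also had 0 calls.

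Marker lists of other cells that a sort could carry along held no gene called by limma, apart from Napsa on the lung epithelium list, and outside that list 1 gene, a neutrophil marker, had an unadjusted p under 0.05. They covered neutrophils, erythroid, B, T and NK cells, dendritic cells, eosinophils with mast cells and basophils, yolk sac endoderm with hepatocytes, endothelium and progenitors, with list medians between -0.03 and 0.22. Of 19 measured neutrophil markers 4 had a mean above the table median in each group. The summed linear signal of the 19 was 2106 to 2848 in YS-derived and 1780 to 4627 in FL-derived cells. S100a8 read 12.04 in FL-derived array 4, against 9.91 to 10.86 in the other FL-derived arrays and 10.26 to 10.81 in YS-derived cells. S100a9 read at most 3.85 in all 8 arrays. The embryonic globin Hbb-y, which had read 10.44 in yolk sac macrophages, lay under the table median in all 8 arrays.

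**Figure D5:**
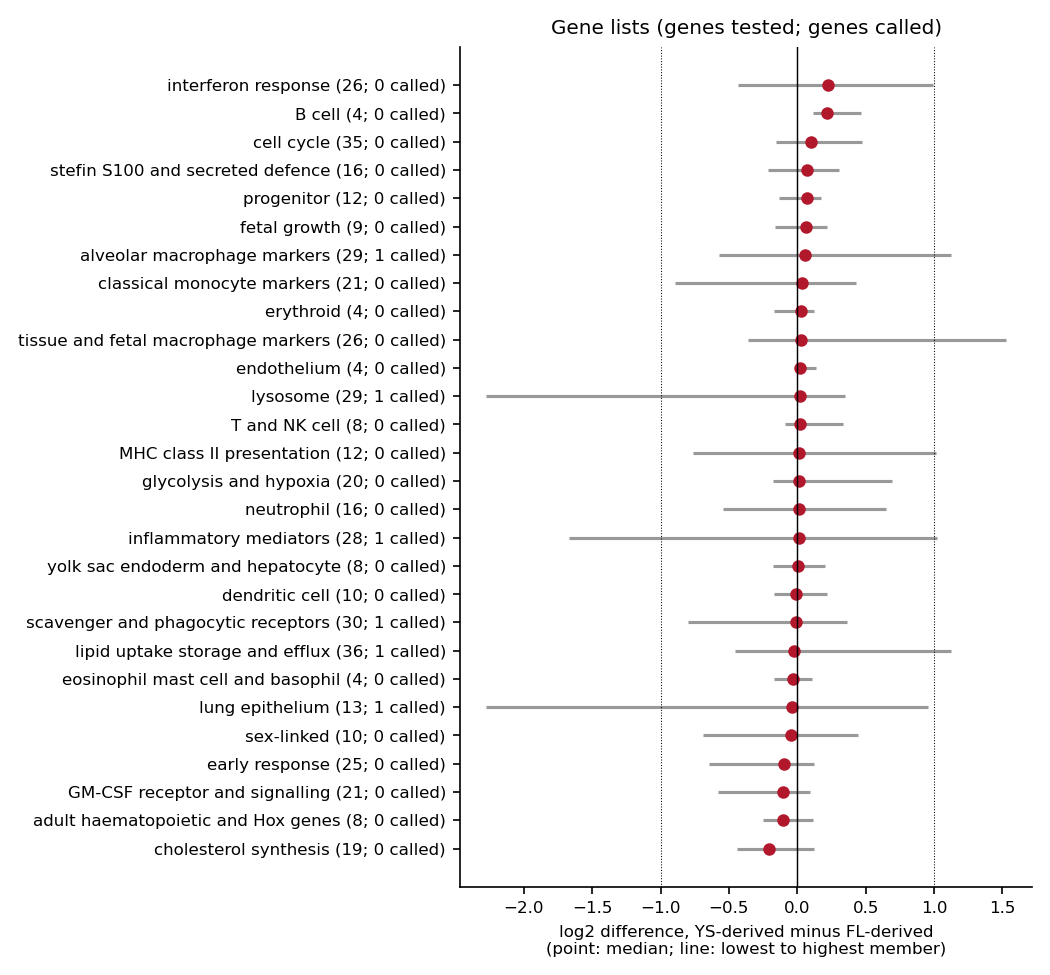
Median (point) and range from the lowest to the highest member (line) of the log2 difference of YS-derived minus FL-derived cells for 28 gene lists, with the numbers of genes tested and called; dotted lines mark 2-fold in either direction. All medians lie between -0.20 and 0.22, and the lines that reach beyond 2-fold to the left are those with Napsa or Ccl17.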

How the data were processed

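RNA of sorted cells was hybridised to Affymetrix mouse gene arrays. The authors deposited log2 values of 35556 probe sets, made with RMA per the submitters' processing notes (version not stated). RMA corrects background, forces the arrays to one distribution and compresses small folds of dim genes. Probe sets with 1 gene symbol (21789) were kept and 1621 with several and 12146 with none left out. Symbols were updated through RefSeq GRCm38.p6 for 21698 of them and 91 kept the old symbol. For 999 genes the probe set with the highest mean was used, leaving 19938 genes, of which 12244 passed the filter.

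One mean per group was fitted to 36 arrays in 9 groups with limma 3.58.1 in R 4.3.3 (lmFit, eBayes). P-values were adjusted by Benjamini-Hochberg within each contrast. Profile distances were compared by exact permutation. On simulated data for this comparison with 12244 genes, 86% of genes changed by 1 on the log2 scale and 99% of those changed by 2 were recovered, with 12 false calls (6.09% of calls). The simulated noise was normal, with one spread per gene shared by all groups, which is what the fit assumes. These rates therefore do not apply to genes whose spread differs between groups, such as Ddah1. The number of arrays limits the precision.

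The comparison, the 28 gene lists and the alternatives were chosen with earlier results of these data known. The text names all called genes, a panel of 13 genes, and of each list members among the 4 with the lowest adjusted p; Sftpb, Scgb3a2, Xist and the precursors' extremes were chosen after their values were seen. Motifs were searched in RefSeq promoter windows. No scan or hybridisation batch is given in the sources used here.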

Additional observations from a re-analysis of the deposited data

Results flagged for a closer look

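Single arrays stood apart from the other 3 of their group for 13 of 194 gene and group pairs (6.70%) by Dixon's gap, where chance gives about 1 in 20. FL-derived array 4 was low for Siglecf (8.75) and high for Hmgcs1 (9.88), Insig1 (9.88) and Junb (6.62). Fabp1, a fatty acid-binding protein that was not among these pairs, read 10.30 in that array, against 12.17 to 12.27 in the other 3. In the same array Hp, a monocyte marker, read 7.64, against 5.39 to 5.79. The neutrophil marker Mmp8 read 6.20 there, against 8.55 to 9.40. FL-derived array 3 was low for Napsa at 6.46, against 7.81 to 8.04 in the other 3. FL-derived array 2 was low for Sipa1l1 (4.04) and high for Cish (7.86) and Igf1 (8.42), and FL-derived array 1 was high for Nlrp3 (6.87). YS-derived array 4 was high for Dnaja1 (10.13), Mvd (7.87) and Igf1 (8.66), and YS-derived array 3 was low for Dusp1 (7.64). What set these arrays apart was not tested.

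The change over transfer differed between the lineages in 2808 genes by the interaction test. For genes called between the derived groups, the interaction contains the difference by which they were called. For the 8 genes with the lowest interaction p among the 11 called between the derived groups as well, it was 4.59 for Gpr141, 3.80 for Napsa, 1.91 for 4930523C07Rik, 1.41 for Cd48 and 1.24 for Pex16, and -2.47 for Stk39, -1.42 for Dnaja1 and -0.89 for Fcgr2b.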

How the results depend on the processing

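The count was 9 instead of 33 when the fit held the 8 arrays alone (6 higher, 3 lower, 8 shared with the 33) and 6 with a replicate block in that fit (4 shared). With a replicate block in the fit of all 36 arrays it was 35, including all 33. The replicate numbers were not treated as pairs. Deviations of same-numbered YS-derived and FL-derived arrays correlated between -0.029 and 0.092, and those of the precursors between 0.065 and 0.16. Differently numbered arrays were not correlated, so these values cannot decide whether the numbers pair the samples. The count of called genes lay between 27 and 45 under the other filters, normalizations, probe set rules, priors and array weights, and was 28 with 24 arrays of alveolar macrophages. Leaving out 1 array gave 23 to 33 genes. Every probe set as its own feature gave 33, and leaving out FL-derived array 4 with YS-derived array 1 gave 30; both were added after seeing the data. The precursor count was 3531 to 3971 and the interaction count 2504 to 2846 with 1 array left out, and with a replicate block they were 4005 and 2796. Against native cells, alternatives also added after seeing the data gave 177 to 201 genes for YS-derived and 89 to 124 for FL-derived cells with 1 array left out, and 78 to 92 and 38 to 48 against BM-derived cells. The profile distance differed by 0.0142 to 0.0332 with 1 array left out, the highest value being the one without FL-derived array 4 given above. No called gene changed direction under any alternative run. Without 1 array, the call was lost in 1 of 8 fits for Fabp4, Fam135a and Nudt4, in 2 for Rras2, C2, Fcgr2b and 4930523C07Rik, in 3 for Agap2 and Plcb1, in 4 for Gpr141, Ifngr1 and Il1f9, in 5 for Fsd2 and Rec114, in 6 for Ccl5 and Dnaja1 and in 8 for Pex16. Uncalled genes near 0 changed sign: Car4 was 0.023 after median centring and Cx3cr1 was -0.0058 with array weights. With 1 array left out Car4 ranged from -0.053 to 0.051, Csf2rb from -0.19 to 0.076, Cx3cr1 from -0.063 to 0.18, Itgax from -0.096 to 0.20, Bhlhe41 from -0.021 to 0.14 and Ccr2 from -0.43 to 0.047. Without both arrays named above Car4 was 0.015, Csf2rb 0.045, Csf2ra 0.0081, Cx3cr1 -0.064 and Mrc1 0.0078. Probe sets under the table median give only bounds, which holds for 1 group in 10 of the 33 genes.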

Other observations

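Of the 5 genes with the next adjusted p above the threshold, 1 has no gene name beyond a clone number (1700006J14Rik, 1.27) and the others were Scly, which releases selenium from selenocysteine (0.74, adjusted p = 0.0598), Slc38a2, an amino acid transporter (-0.62, 0.0724), Cryab, a small heat shock protein (0.91, 0.0729), and Itga1, a collagen-binding integrin chain (-1.20, 0.0808). Just inside it were Pex16 (adjusted p = 0.0365) and Ifngr1 (0.0414).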
